A study of Arabidopsis thaliana with 6 samples.

Results

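The genes described are 10 Arabidopsis thaliana genes of messenger RNA decay: 8 that encode tandem CCCH zinc finger proteins (CZF1, SZF1, OZF1, OZF2, TZF1, TZF4, TZF5 and TZF6) and 2 that encode CAF1 deadenylases (CAF1a and CAF1b). They were chosen by name and function, with earlier results of these data known, from 27444 protein-coding genes on the 5 nuclear chromosomes of the gene table. The RefSeq gene table of assembly TAIR10.1 carries all 10 loci and names each by a symbol or synonym. Its symbols are ATCTH for TZF1, SOM for TZF4 and PEI1 for TZF6. Because the choice was made with the summits in view, the counts and strengths of the members are descriptions and were not tested.

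The data are from chromatin immunoprecipitation followed by sequencing (ChIP-seq), which maps where a tagged protein is cross-linked to DNA. Whole seedlings, 9 days old and kept in continuous white light, carried WDR5A with an HA epitope tag, and the genotype label of all 6 libraries is WDR5A-HA_pkl. WDR5A is a WD40-repeat subunit of complexes that methylate lysine 4 of histone H3, a mark of active genes. PKL, or PICKLE, is a chromatin remodeller of the CHD3 class, and the pkl background is common to every library. The labels do not give the promoter of the tagged construct or the pkl allele. The descriptions place 3 libraries in the immunoprecipitated (IP) group WDR5A-HA_pkl-IP and 3 in the WDR5A-HA_pkl-input group. The titles name PKL_WT and PKL_jaw-5D for the same libraries, so bait and genotype rest on the descriptions, as do all values here. Lists of peak summits were at hand for the 3 IP libraries alone, with 10864, 10408 and 10826 summits for replicates 1, 2 and 3. Without a list of the inputs or of a PKL wild type, no difference between groups could be computed.

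Eukaryotic messenger RNAs usually begin to decay when their poly(A) tail is shortened. CAF1 proteins are catalytic deadenylases of the CCR4-NOT complex, which carries out much of this shortening. Tandem CCCH zinc finger proteins hold a pair of fingers, each of which binds zinc through cysteines and a histidine. Their animal relatives, such as tristetraprolin in mammals, bind AU-rich sequences of short-lived transcripts and recruit deadenylases. In Arabidopsis the arginine-rich tandem CCCH proteins have been linked to salt, oxidative and hormone responses and to seed germination, and CAF1a and CAF1b to responses to stress and wounding.

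A member was called in a list when the list held a summit within the gene or within 500 bp of either edge, a stretch referred to as the window. Strength here means the score that the authors deposited for a peak, read as its −log10 q and taken at the strongest summit of the window. It grows with sequencing depth as well as with enrichment, so ranks within a list are given beside it. The depth of the libraries is unknown, and a gene without a summit is one at which none was called. Of the 10 members, 6 were called in each of the 3 lists, against 24.8% of all protein-coding genes: CZF1, SZF1, OZF1, OZF2, TZF1 and CAF1a. CAF1b and TZF6 were called in 2 lists, TZF5 in 1 and TZF4 in none. At least 2 lists called 8 members, against 33.5% of all protein-coding genes, and at least 1 list called 9, against 43.6%. The list of replicate 1 reached 6 members, that of replicate 2 reached 9 and that of replicate 3 reached 8, against 34.3%, 33.2% and 34.4% of all protein-coding genes.

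**Figure D1:**
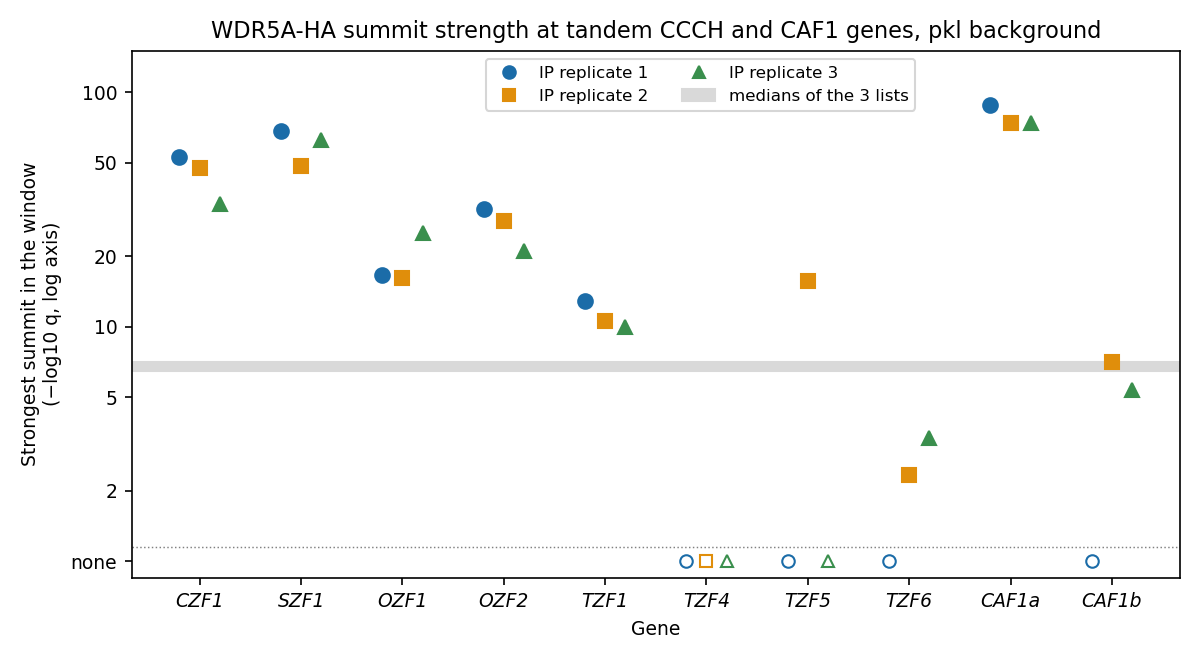
Strength of the strongest summit in the window (−log10 q, log axis) for each of the 10 genes in the 3 IP lists. Filled symbols are summits, open symbols on the bottom row mark lists with none, and the grey band spans the median strengths of the 3 lists, 6.48 to 7.08. All points of CZF1, SZF1, OZF1, OZF2, TZF1 and CAF1a lie above the band, and TZF4 has open symbols only.

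CAF1a (AT3G44260), a catalytic deadenylase gene, held the strongest summits among the members. Its strength was 88.2, 73.7 and 73.9 in replicates 1, 2 and 3, a mean of 78.6 ± 8.33 (SD, n = 3). These summits ranked 13th, 12th and 20th within their lists, and CAF1a stood 14th by mean strength among the 6801 protein-coding genes called in each list. The summits lay inside the gene at positions 15952497, 15952503 and 15952500 of chromosome 3 (TAIR10), a spread of 6 bp. Over all called genes the strongest summits of the 3 lists spread over a median of 78 bp, and 1.09% of them had a spread of 6 bp or less. The nearest stronger summit on the chromosome was about 1957 kb away in each list.

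CAF1b (AT5G22250), the other deadenylase gene, stood far lower. Replicate 2 had a summit of 7.10 and replicate 3 a summit of 5.35, at percentiles 54.6 and 38.2 of their lists. Replicate 1 had none, and its nearest summit lay 5122 bp outside the gene. Both values of CAF1b were below all 3 values of CAF1a. The genes have nearly the same length, 1323 bp for CAF1b and 1339 bp for CAF1a. The summits also lay at similar distances from the gene edge with the lower coordinate, 526 and 616 bp in CAF1b and 489 to 495 bp in CAF1a. Strand was not used, so gene starts and ends are not told apart, and edges are named by their coordinate.

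SZF1 and CZF1, a pair of related genes linked to salt responses, came next among the members. SZF1 (AT3G55980) had strengths of 68.2, 48.3 and 62.5 in replicates 1, 2 and 3, a mean of 59.7 ± 10.2 (SD, n = 3). CZF1 (AT2G40140) had 53.0, 47.6 and 33.3, a mean of 44.6 ± 10.2 (SD, n = 3). SZF1 was higher than CZF1 in each of the 3 lists, but their ranges overlapped. By mean strength SZF1 stood 42nd and CZF1 118th of the 6801 called genes.

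Measured from the lower-coordinate edge, the summits of this pair lay at similar distances, although their ranges did not overlap. Without strand, it is unknown whether they lie at similar distances from the gene starts. Each gene held 1 summit per list, inside the gene, and none elsewhere in its window. SZF1 is 2733 bp long and its summits lay 1067 to 1115 bp from the lower-coordinate edge, with a median of 39.7% of the gene length. CZF1 is 2738 bp long and its summits lay 1034 to 1038 bp from that edge, with a median of 37.9% of the gene length. The CZF1 summits fell at positions 16773035, 16773035 and 16773031 of chromosome 2 in replicates 1, 2 and 3, a spread of 4 bp. Only 0.485% of called genes had a spread that small. The SZF1 summits fell at positions 20777335, 20777287 and 20777306 of chromosome 3, a spread of 48 bp, and 32.0% of called genes were at or below that. The nearest stronger summit was about 120 kb from SZF1 in each list and about 72 kb from CZF1.

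CAF1a, SZF1 and CZF1 were the members whose summits lay in the strongest 5% of each list, where 1.03% of all protein-coding genes had one. The lower bounds of that class were 30.6, 26.2 and 27.9 in replicates 1, 2 and 3. CZF1 in replicate 3 was the closest of the 9 values to its bound.

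**Figure D2:**
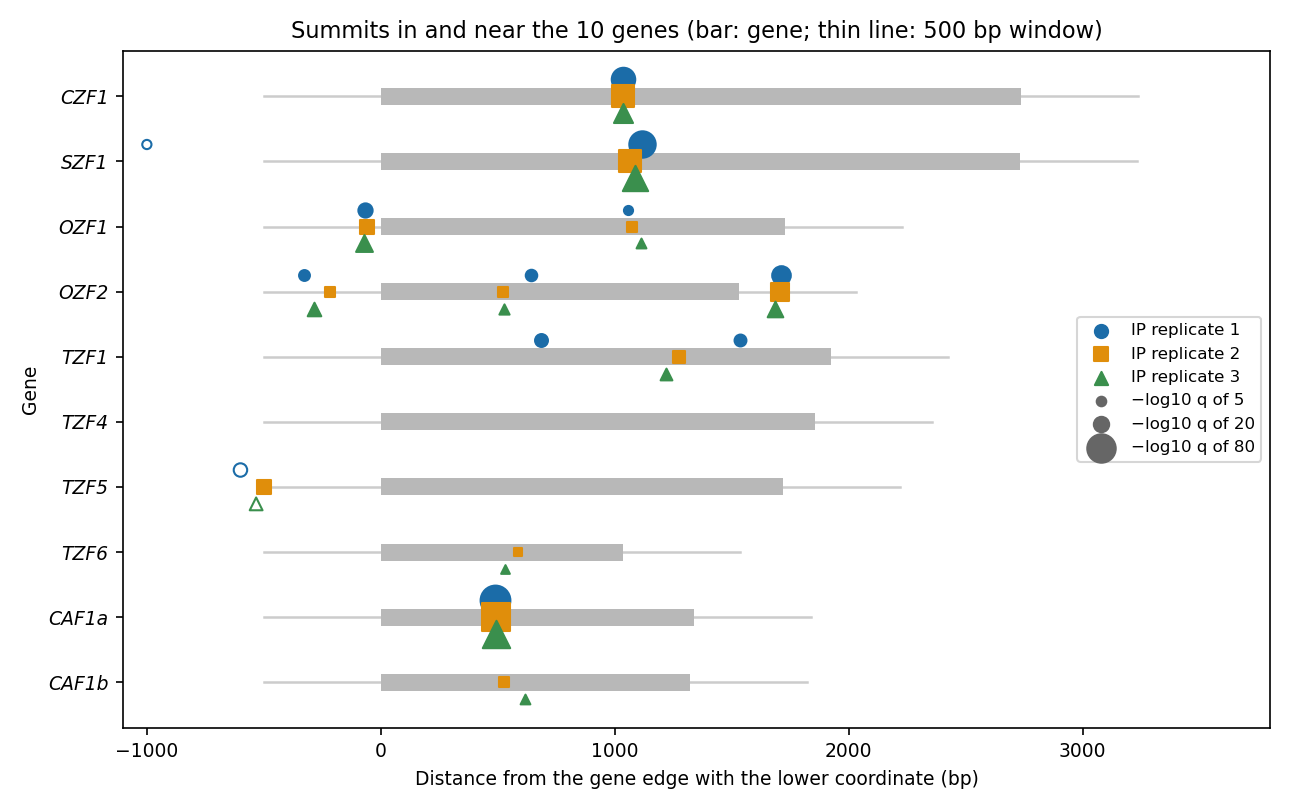
Summits of the 3 IP lists in and near the 10 genes, by distance in bp from the gene edge with the lower coordinate. Bars are genes, thin lines the windows of 500 bp to either side, symbol size grows with −log10 q, and open symbols lie outside the window. The summits of CAF1a, SZF1 and CZF1 stack inside the gene, OZF1 has 2 places and OZF2 has 3, and the TZF5 summits lie around the end of the window.

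The OZF pair, named for oxidation-related zinc finger, differed from the SZF pair in holding its strongest summits outside the gene. OZF2 (AT4G29190) had strengths of 31.7, 28.3 and 20.9 in replicates 1, 2 and 3, a mean of 27.0 ± 5.48 (SD, n = 3). OZF1 (AT2G19810) had 16.6, 16.2 and 25.1, a mean of 19.3 ± 5.02 (SD, n = 3). OZF2 was higher in replicates 1 and 2 and OZF1 in replicate 3, so the pair was not separated beyond the spread between lists. Their means stood 468th and 953rd among the 6801 called genes.

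Each of the pair carried several places that recurred in all lists. Summits of different lists were linked where neighbours lay within 250 bp, and a linked group with a summit of each list was called a shared region. OZF2 had 3 shared regions in its window, against 0.266% of all protein-coding genes with as many. OZF1 had 2, and 3.29% of all protein-coding genes had at least 2. The strong region of OZF2 lay 176 bp outside the upper-coordinate edge at position 14393557 of chromosome 4, and that of OZF1 67 bp outside the lower-coordinate edge at position 8550186 of chromosome 2. A weaker region lay inside each gene, with a mean strength of 7.14 ± 1.81 in OZF2 and 5.49 ± 1.34 in OZF1 (SD, n = 3 each). It was 1181 bp from the strong region in OZF2 and 1143 bp from it in OZF1. The remaining region of OZF2 lay 284 bp outside its lower-coordinate edge, with 7.73, 4.18 and 14.7 in replicates 1, 2 and 3. The strong regions were the narrower ones, with spreads of 27 bp in OZF2 and 12 bp in OZF1, against 54 to 123 bp for the weaker regions of both genes. Counting summits inside the gene alone lowered OZF2 to 7.14 and OZF1 to 5.49 in mean strength and placed both below TZF1.

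TZF1 (AT2G25900, ATCTH in the table), whose protein is found in processing bodies and stress granules, was the weakest of the 6 called members. Its strengths were 12.8, 10.6 and 9.93 in replicates 1, 2 and 3, a mean of 11.1 ± 1.52 (SD, n = 3), above the median of 8.90 over all called genes. With linking within 250 bp its summits did not join into 1 shared region, while within 500 bp they did. Replicate 1 had summits at positions 11042017 and 11042868 of chromosome 2, replicate 2 at 11042605 and replicate 3 at 11042551. The strongest spread over 588 bp, wider than in any other called member, and at 250 bp no shared region lay in the window. The summits of replicates 2 and 3 lay within linking distance of each other, between the summits of replicate 1.

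The other 5 called members each held a shared region, so 5 of the 10 members did, against 22.9% of all protein-coding genes. Leaving out the list of replicate 1 gave 8 members with a region shared by the remaining lists, TZF1, TZF6 and CAF1b being the additions, against 25.9% of all protein-coding genes. Linking within 500 bp gave 6, TZF1 being the addition, against 24.1%.

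TZF4, TZF5 and TZF6 form the part of the family studied for roles in seeds and embryos. TZF4, also named SOMNUS, represses light-dependent germination, and TZF6, also named PEI1, was first described from embryos. At TZF4 (AT1G03790) no list had a summit in the window. The nearest ones lay 1689, 1970 and 1789 bp outside the gene in replicates 1, 2 and 3, inside the neighbouring gene ERF10. At TZF6 (AT5G07500) replicate 1 had no summit, replicate 2 one of 2.34 and replicate 3 one of 3.37, both inside the gene. These are at percentiles 6.36 and 16.6 of their lists, both below the list's median.

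TZF5 (AT5G44260) showed how the window's edge decides a call. All 3 lists had a summit beside it, at positions 17829019, 17829118 and 17829086 of chromosome 5, with strengths of 14.4, 15.7 and 12.6 in replicates 1, 2 and 3. They lay 599, 500 and 532 bp outside the lower-coordinate edge, so that of replicate 2 was just within the window and the others just beyond it. Together they formed a shared region with a mean strength of 14.2 ± 1.53 (SD, n = 3), above that of TZF1. With a window of 1000 bp TZF5 was called in each list and the count became 7 of the 10 members, against 29.3% of all protein-coding genes.

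Among the 6 called members the order by mean strength was CAF1a, SZF1, CZF1, OZF2, OZF1 and TZF1. The ranges over the 3 lists did not overlap between CAF1a and SZF1, between CZF1 and OZF2, or between OZF1 and TZF1. They overlapped between SZF1 and CZF1 and between OZF2 and OZF1. With all summits of a window summed, OZF2 had 48.6, 38.4 and 41.9 in replicates 1, 2 and 3, a range that overlapped that of CZF1 and no longer that of OZF1. The summed values of TZF1, 23.0, 10.6 and 9.93, then overlapped those of OZF1, 20.7, 23.0 and 30.6. Among all called genes the median mean strength was 8.90, the 90th percentile 22.8 and the 99th percentile 52.3. CAF1a and SZF1 lay above the 99th percentile, CZF1 and OZF2 above the 90th, and OZF1 and TZF1 above the median.

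**Figure D3:**
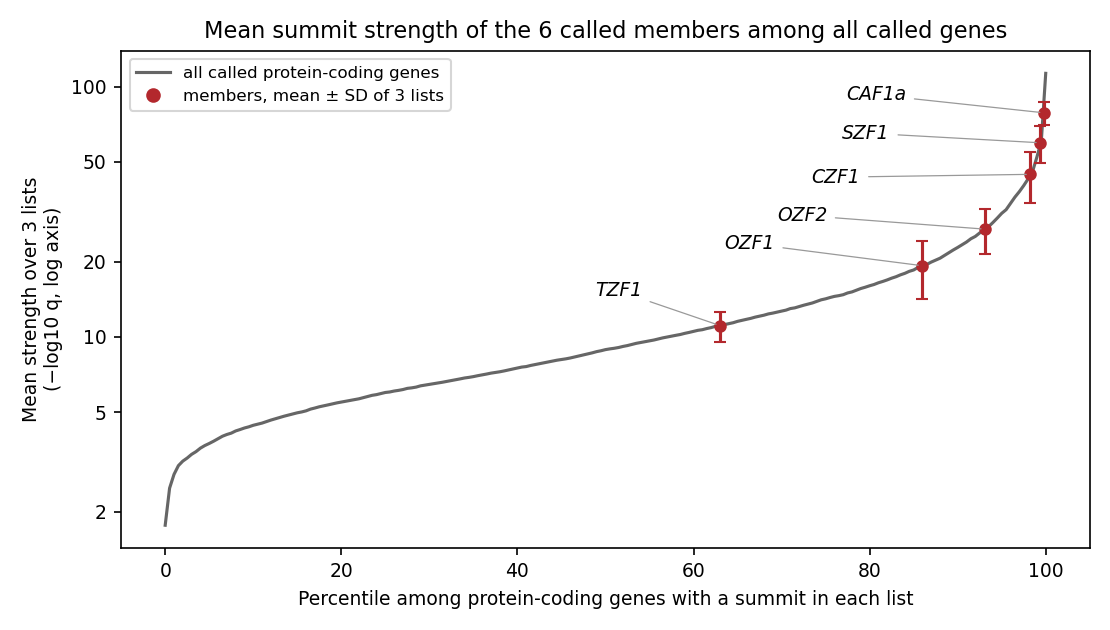
Mean strength over the 3 lists (−log10 q, log axis) against percentile among the 6801 protein-coding genes called in each list. Red points are the 6 called members with SD over the 3 lists, and the grey line is all called genes. CAF1a, at 78.6, and SZF1, at 59.7, sit at the steep upper end, and TZF1, at 11.1, lies nearest the middle.

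A summit inside the gene in each list was found at 6 of the 10 members, against 11.1% of all protein-coding genes. These are the 6 called members, and 44.8% of all called genes had such a summit. The strongest summit was inside the gene in every list for 4 of the 6 called members, CZF1, SZF1, TZF1 and CAF1a, and for 35.9% of all called genes. It lay outside in every list for OZF1 and OZF2, and for 43.2% of all called genes. When summits weaker than the median of their list were left out, the same 6 members were called, against 11.7% of all protein-coding genes.

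The members had distant neighbours. Their nearest protein-coding neighbour lay a median of 1257 bp away, against 190 bp for all protein-coding genes. The distance was 689 to 2735 bp for the 6 called members and 50 to 1442 bp for the other 4. The median gene length was 1723 bp for the members and 2078 bp for all protein-coding genes. Each summit in a member's window lay in the window of no other protein-coding gene. Of the 12 genes next to the 6 called members, 10 had no summit in any list. Of the 8 genes next to the other 4 members, 6 had none, and of all 27444 protein-coding genes 15476 had none. TBL28 beside CZF1 had a summit in 1 list, and AT4G29200 beside OZF2 had one in each list, with a mean strength of 8.57. The genes next to CAF1a, CYP71B38 and AT3G44261, had none.

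The genes most like a member in strength over the 3 lists were taken by the Euclidean distance of log10 strength among the 6795 other called genes. Nearest to CAF1a were the ethylene response repressor gene ERF4 at a distance of 0.0668, LBD41 at 0.0670 and the dehydration-response gene ERD15 at 0.0750. ERF4 had 93.7, 75.3 and 85.0 in replicates 1, 2 and 3. LBD41 had 77.6, 69.4 and 69.5, and ERD15 had 103.2, 71.0 and 78.6. Nearest to TZF1 were SCPL10 at 0.0159, UKL3 at 0.0251 and AT3G12775 at 0.0258. The likeness is of strength in 3 lists only.

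The relatives of the zinc finger genes and the other genes of messenger RNA decay were read in the same way. The lists were written from general knowledge with earlier results known, and of 61 loci the 35 named by the gene table were kept. All 9 loci listed as further CAF1 genes and 7 of the 9 listed for other CCR4-NOT subunits were among those left out, so no CAF1 relative is compared here. Of the 35, 9 were called in each list (25.7%), against 24.8% of all protein-coding genes, a share near the background. None of the 35 had a summit in the strongest 5% of each list, where CAF1a, SZF1 and CZF1 lay. Only 1.03% of all protein-coding genes had one, so none among 35 is near the background. Leaving out the list of replicate 2 gave 16 of the 35, against 28.1% of all protein-coding genes. Among the 16 are VCS and VCR, each 187 bp from its nearest gene. They had the same strengths, 1.57 in replicate 1 and 3.46 in replicate 3, so they are not separate calls. Inside the gene alone, 1 of the 35 was called, against 11.1%.

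TZF7 and TZF9, further arginine-rich tandem CCCH genes, were both called in each list. They are 2 of the 3 loci listed for that group, and the remaining locus, which the table does not name, was not analysed here. TZF9 (AT5G58620) had 20.3, 18.8 and 15.5 in replicates 1, 2 and 3, a mean of 18.2 ± 2.47 (SD, n = 3), with its shared region 230 bp outside the lower-coordinate edge. TZF7 (AT2G41900, OXS2) had 15.9, 18.8 and 15.3, a mean of 16.7 ± 1.85 (SD, n = 3). These summits spread over 4201 bp, so the mean joins different places. TZF7 held shared regions on both sides, 307 bp outside the lower-coordinate and 172 bp outside the upper-coordinate edge. The lower region had 15.9, 18.8 and 10.4 in replicates 1, 2 and 3, and the upper one 11.6, 9.43 and 15.3. By strongest summit, the ranges of TZF9 and TZF7 overlapped that of OZF1 and lay below those of CZF1 and SZF1. The upper region of TZF7 alone lay below the range of OZF1. The further tandem CCCH gene C3H14 had a summit of 7.44 in replicate 2 alone, and C3H15 had none.

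**Figure D4:**
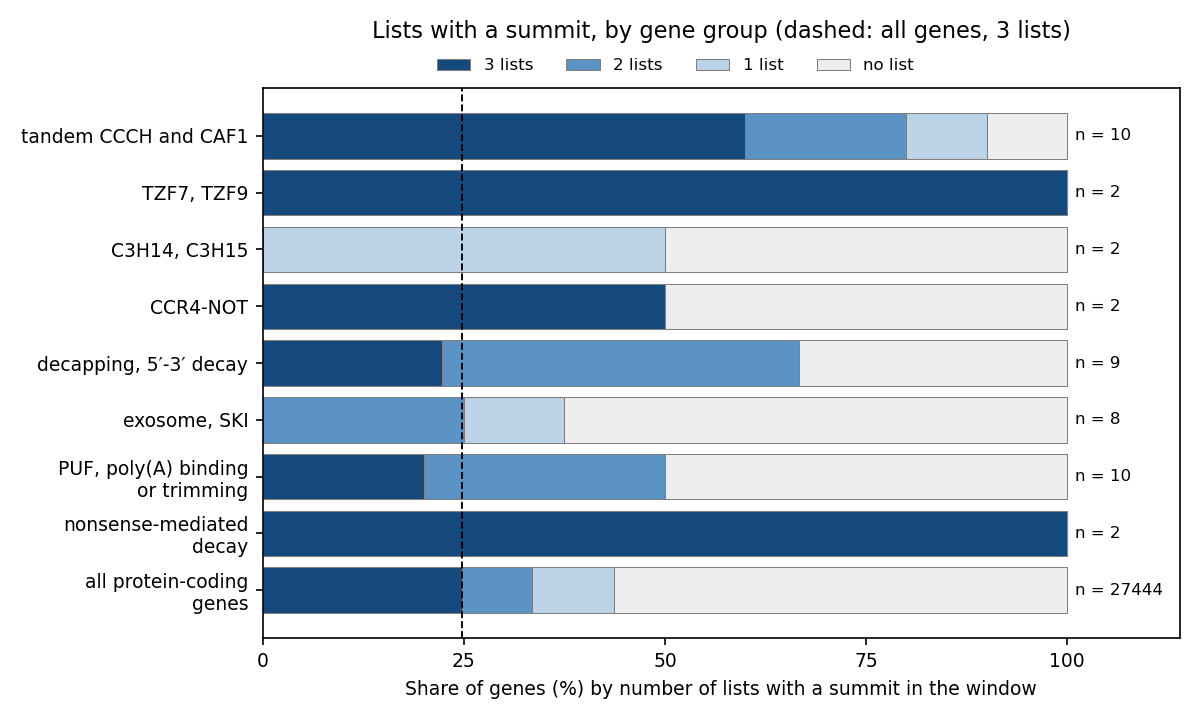
Share of genes (%) by the number of IP lists with a summit in the window, for the 10 members, their named relatives, 5 groups of decay genes and all 27444 protein-coding genes. The dashed line marks the 24.8% of all protein-coding genes called in 3 lists. Of the members 60.0% reach 3 lists, and of the exosome and SKI genes none does.

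In the machinery that acts with or after deadenylation, most called genes lay below the median of all called genes. NOT2b, a CCR4-NOT subunit gene (VIP2 in the table), was called in each list with a mean of 4.23 ± 1.06 (SD, n = 3), and NOT2a in none. Of 9 genes of decapping and 5′ to 3′ decay, 2 were called in each list, against 24.8% of all protein-coding genes. DCP1, whose product activates the decapping enzyme, had 26.3, 19.4 and 24.2 in replicates 1, 2 and 3, a mean of 23.3 ± 3.54 (SD, n = 3). Its nearest neighbour is 32 bp away, so its summits can lie in the neighbour's window as well. The same holds for NOT2b, DCP5, APUM5 and UPF3, with nearest neighbours 240, 259, 0 and 247 bp away. By median position over the lists, the strongest summits of DCP1, NOT2b, DCP5, APUM5, PAB8, UPF1 and UPF3 lay outside the gene. DCP5 reached 4.29 ± 1.79 (SD, n = 3), and the decapping enzyme gene DCP2 had no summit.

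Of 8 exosome and SKI genes, which serve 3′ to 5′ decay, none was called in each list, 2 were called in 2 lists and 5 had no summit. Of all protein-coding genes, 24.8% were called in each list and 15476 of 27444 had no summit. The groups are small, and their counts were not tested against these shares. PAB8, a poly(A)-binding protein gene, had a mean of 6.11 ± 2.32 and the Pumilio gene APUM5 3.62 ± 1.53 (SD, n = 3 each), and they were the called ones among 10 genes of Pumilio proteins and poly(A) binding or trimming. Both nonsense-mediated decay genes analysed were called, UPF1 at 11.9 ± 2.26 and UPF3 at 4.69 ± 0.624 (SD, n = 3 each). Of the 31 decay genes, 7 were called in each list (22.6%), near the share of all protein-coding genes. These called genes had a median mean strength of 4.69, against 8.90 over all called genes. Over the 6 called members it was 35.8.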

How the data were processed

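ChIP-seq summit lists of the 3 IP libraries were analysed, each with 1 bp summits. The score column of the deposited lists was taken as −log10 q, since its lowest value, 1.30, equals the −log10 of 0.05. The submitters' processing notes name MACS2 2.2.5, Bowtie2 2.3.3, fastp, deepTools and TAIR10. Neither peak thresholds nor a role of the inputs is given in the sources used here. The labels' protocols state shearing to between 200 and 500 bp. Lists were assigned to libraries by name and replicate number. The series' design text calls the replicates biological.

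Positions count from 1. Gene spans, classes and names came from a RefSeq table of TAIR10.1, whose coordinates are not printed because the assembly name differs. The table carries no strand, so distances from gene starts were replaced by distances from gene edges. Motif and protein comparisons that had been planned were not run. Of the 71 loci in the lists of members and relatives, 26 are not named by the table and were left out. Members and lists were chosen with earlier results of these data known. All members and named relatives are described, and of each decay list up to 4 called genes with the highest mean strength.

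Calls and regions were computed with Python 3.11.15, numpy 2.4.6 and pandas 2.3.3. The calling steps were tested on simulated summits at genes far from their neighbours, so windows shared by neighbouring genes were not covered. Alternatives were the window, a stricter strength, the assignment of summits, the number of lists, the linking distance and leaving out each list.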

Additional observations from a re-analysis of the deposited data

How the results depend on the processing

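The count of 6 members called in each list ranged from 6 to 8 under every alternative tried, and from 6 to 8 with 1 list left out. The count of members with a shared region ranged from 5 to 8 with 1 list left out, the 8 coming without replicate 1. The 35 named relatives and decay genes, 9 of them called, varied more. The count was 1 with the gene body alone, 4 with summits at or above the list's median strength, 5 with each summit given to 1 gene, 18 in at least 2 of 3 lists, and 9 to 16 with 1 list left out. Both the 18 and the 16 include VCS and VCR, which had the same strengths. The share of all protein-coding genes, 24.8%, became 11.1% with the gene body alone and 11.7% with the median strength. With 1 list left out it was 27.5% to 28.1%. Like the count of relatives, this share fell, to 17.7%, when a summit could count for only 1 gene. It rose, as that count did, to 33.5% when calls in 2 lists were enough. The share was 25.1% among the 14252 genes with a length between those of the shortest and longest members. The order of the 6 called members was kept in percentile ranks, in sums over the window, with 1000 bp flanks and without each list in turn, and 3 of 6 kept their place with the gene body alone. Sums raised OZF2 1.59 times and changed which neighbours in the order overlapped. Depth is unknown, so a missing summit cannot be told apart from one below the threshold. No paired analysis was possible because the input libraries, which share the replicate numbers, had no list here. The alternative for positions from gene starts was run on positions from gene edges and moved none beyond the spread between lists. TZF1, with no shared region, gave no value there.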
